A study of Callithrix jacchus with 4 samples.

Results

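The chondroitin sulfate proteoglycans and tenascins of marmoset primary visual cortex (V1) were followed through 7 annotated cell types after ischemic stroke. The group was chosen by gene name and holds 10 genes, of which 9 had counts: the lecticans *VCAN*, *BCAN*, *NCAN* and *ACAN*, the link protein gene *HAPLN1*, the tenascins *TNR* and *TNC*, and the membrane proteoglycans *CSPG5* and *PTPRZ1*. *CSPG4* was not analysed here. The 9 genes were among 16383 genes listed for both cohorts, and each had counts in both.

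The injured cohort was 3 adult marmosets that received endothelin-1 (ET-1), a peptide that constricts blood vessels, in V1. Gray matter with the core and penumbra of the lesion was taken 7 days later, and each animal gave 1 library of single nuclei (injured replicates 1, 2 and 3). V1 nuclei of 3 adult marmosets without a lesion were pooled in 1 control library, which leaves no measure of how control animals vary. The cohorts also differed in how nuclei were isolated (control nuclei were sorted by flow cytometry) and in the sequencing facility. The sequencer (Illumina for the injured cohort, MGI for the control) and the read layout (paired-end and single-end) differed as well. Doublets were removed with Scrublet in the injured cohort and by limits on gene number in the control. These differences cannot be told apart from the injury.

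The libraries held 7500 to 12527 nuclei and 22832703 to 48722394 transcripts counted as unique molecular identifiers (UMIs). Control nuclei were shallower, with a median of 2117 UMIs against 3531 to 4504.5 in the injured libraries. Of 32 listed markers that the authors used to name the clusters, 31 were highest in their own type in each cohort. The exceptions were *GPR34*, a microglial gene, in the injured cohort and *FLT1*, an endothelial gene, in the control. Because the labels were given by these markers, this is no independent check of them. Pairs of libraries shared at most 27 barcodes. Levels are given as CPM, a count per gene scaled to the total of all UMIs that nuclei of that cell type held in that library, and are compared between samples but not between genes. Fewer expressing nuclei and less RNA per nucleus cannot be told apart in such a sum.

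Lecticans are secreted core proteins that carry chondroitin sulfate chains, bind hyaluronan at one end and tenascins at the other, and are tied to hyaluronan by link proteins. Around some neurons, above all parvalbumin interneurons, this mesh condenses into perineuronal nets, in which aggrecan (*ACAN*) is a main component. In central nervous system injury the chondroitin sulfate proteoglycans are known as components of the glial scar that hinder axon growth.

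*TNC* was not detected in any of 171 control oligodendrocyte progenitor cells (OPC, the glia that give rise to oligodendrocytes) and was at 255 to 332 CPM in injured OPC. *VCAN* rose in astrocytes, from 5.78 CPM to between 67.6 and 115 CPM. *BCAN* rose in excitatory neurons (ExN), from 14.6 to between 24.7 and 28.5 CPM. Inhibitory neurons also lay above the control in *BCAN*, without a call. *VCAN*, *TNR* and *PTPRZ1*, each highest in OPC in both cohorts, were not called there.

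**Figure D1:**
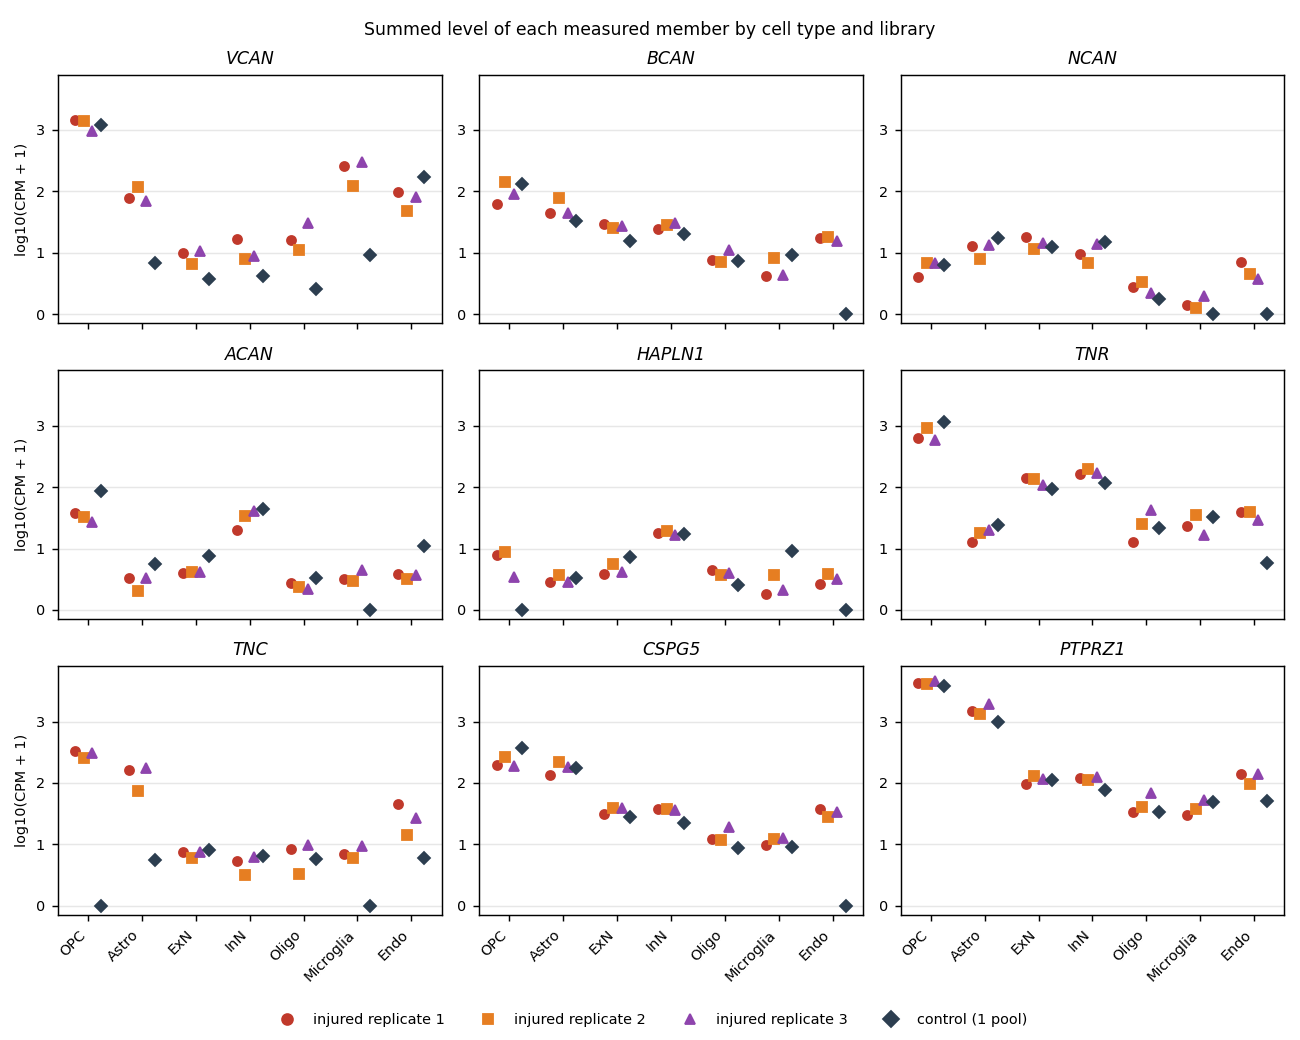
Level of each measured member, as log10(CPM + 1), in 7 cell types; each point is 1 library, with the 3 injured libraries to the left and the control pool (diamond) to the right of each position, a count of 0 being drawn at 0. *TNC* in OPC and astrocytes and *VCAN* in astrocytes and microglia show clear gaps between the injured libraries and the control, while *PTPRZ1* and *VCAN* in OPC lie close together.

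Tenascin C (*TNC*) is a large matrix glycoprotein that is abundant in development and low in most of the adult brain. In OPC it was at 332, 255 and 307 CPM in injured replicates 1, 2 and 3, and at 0 UMIs in the control, whose OPC held 186916 UMIs in all. All 3 injured libraries were thus above the control, and their pooled level was at least 18.7-fold higher when the control is set at 3 UMIs. The call passed (edgeR's quasi-likelihood test, Benjamini-Hochberg adjusted p = 0.00801), as the 1 member of 8 tested in OPC, where 0.0697% of 11476 genes were called. Leaving out injured replicate 1 ended the call (adjusted p = 0.0602), as did scaling by library size alone (0.0112) and thinning (0.0138).

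Counted as nuclei, a *TNC* UMI was present in 44.0%, 24.4% and 40.6% of injured OPC. None was found in 171 control OPC, which allows a share of up to 1.75%. Depth differed, since the median OPC held 2912 to 5628 UMIs in the injured libraries and 962 in the control. Thinning to 1000 UMIs left out nuclei with fewer UMIs. It kept 80 of 171 control OPC, and 279 of 284, 433 of 451 and 390 of 401 injured OPC. In the nuclei kept, the shares were 18.6%, 12.9% and 19.0% in the injured libraries, and 0 of 80 nuclei in the control, which allows up to 3.75%. In injured microglia, where *TNC* was at 5.01 to 8.38 CPM, 1.26% to 2.61% of nuclei held a *TNC* UMI at median depths of 2428 to 3930 UMIs. The share was 2.39% to 4.08% in injured ExN and 2.19% to 6.46% in injured nuclei labelled Endo (endothelial). At full depth the injured OPC shares lay above all of these. The part of stray *TNC* RNA in any of these shares was not tested.

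In astrocytes *TNC* was at 158, 74.1 and 176 CPM in the injured libraries and at 4.62 CPM in the control, where it rested on 4 UMIs. Each injured library was above the control, and injured replicate 2 was the lowest of them, as it was in OPC. The fitted difference was 4.98 on the log2 scale (SE 0.79), and its adjusted p of 0.0101 missed the limit of 0.01 (edgeR). DESeq2 called it (adjusted p = 4.74e-07), and edgeR did without injured replicate 2 (6.5e-06). The share of astrocytes with a *TNC* UMI was 26.4%, 10.4% and 24.9% in the injured libraries and 0.673% (95% exact binomial interval 0.184% to 1.72%) in the control. After thinning these shares were 9.05%, 4.35% and 9.01% against 0.276%.

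Neurons did not share this pattern. *TNC* in ExN was at 6.37, 5.07 and 6.56 CPM in the injured libraries and at 7.14 CPM in the control. Its levels in inhibitory neurons (InN) were 4.403, 2.198 and 5.199 CPM against 5.51 CPM. The injured to control difference of *TNC* was smaller in ExN than in astrocytes by 5.04 on the log2 scale (SE 0.73, adjusted p = 0.000674, interaction test in edgeR) and smaller in InN by 5.31 (SE 0.99, adjusted p = 0.00819). For these contrasts 0.663% and 0.514% of 14772 genes passed. In the injured libraries OPC and astrocytes led, and their ranges stood clear of the other types. The control order is less certain, since OPC and microglia without a *TNC* UMI could hold up to 16.1 and 24.1 CPM (3 UMIs), above the ExN and InN levels.

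Of all *TNC* UMIs, OPC gave 46.1%, 46.3% and 38.4% in the injured libraries although they were 3.79%, 3.60% and 4.22% of nuclei. Astrocytes gave 29.0%, 25.7% and 40.8%. Most OPC *TNC* UMIs lay in nuclei that also held a UMI of the astrocyte gene *GFAP*, described below. These were 474 of 539, 253 of 391 and 545 of 634 OPC *TNC* UMIs in injured replicates 1, 2 and 3. In the control 122 of 150 *TNC* UMIs came from ExN, which were 62.7% of control nuclei and 24.8%, 36.4% and 31.7% of injured nuclei.

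**Figure D2:**
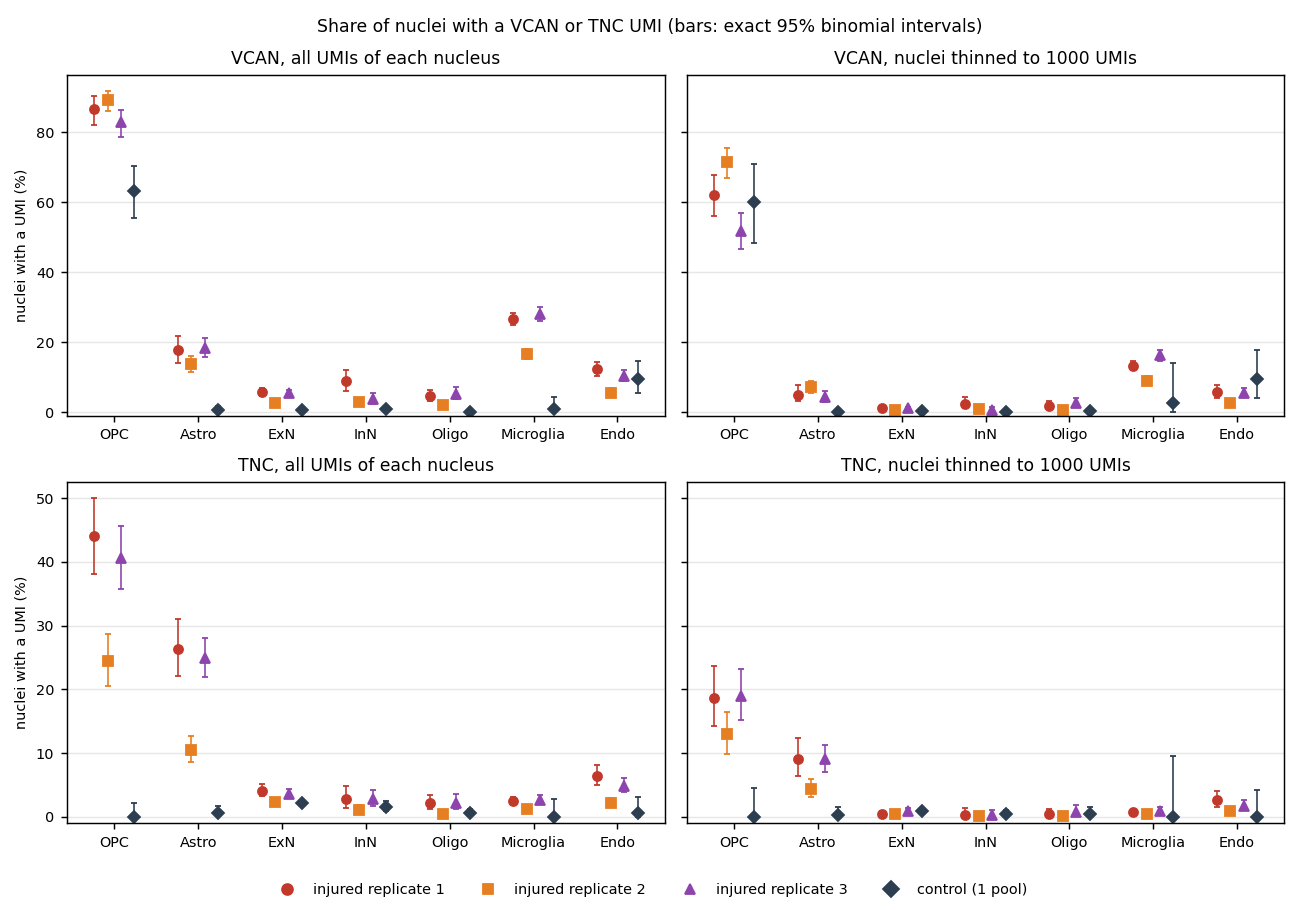
Percent of nuclei with at least 1 *VCAN* UMI (top) or *TNC* UMI (bottom) per cell type and library. The left panels use all UMIs, and the right panels nuclei of at least 1000 UMIs thinned to that number. Bars are exact 95% binomial intervals, which cover counting error only. The injured OPC and astrocytes stay above the control for *TNC* after thinning, while the *VCAN* shares of OPC overlap (51.8% to 71.4% injured, 60.0% control).

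Many injured OPC also held UMIs of *GFAP*, the intermediate filament gene of astrocytes. At least 1 *GFAP* UMI was present in 51.1%, 25.3% and 49.9% of injured OPC and in 0 of 171 control OPC, which allows up to 1.75%. The OPC with a *GFAP* UMI held more UMIs per nucleus (medians of 6800, 4295.5 and 6702.5) than those without (4585, 2733 and 3452). *TNC* was at 486, 475 and 418 CPM in the OPC with *GFAP* and at 100.1, 138 and 117 CPM in those without, a ratio of 4.85, 3.44 and 3.56.

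Most other members ran the opposite way in these nuclei. *VCAN* in OPC with *GFAP* was 0.299, 0.541 and 0.307 times its level in OPC without, *TNR* 0.193, 0.228 and 0.194 times, and *BCAN* 0.0425, 0.160 and 0.0988 times. *CSPG5* and *ACAN* were lower in the nuclei with *GFAP* in all 3 libraries as well. *PTPRZ1* stayed within 0.822 to 0.866 times. *CD44*, a hyaluronan receptor, was 2.71, 2.21 and 3.69 times higher with *GFAP*. *PDGFRA*, the OPC receptor tyrosine kinase, was at 333 to 403 CPM in the nuclei with *GFAP* and at 783 to 886 CPM in those without. *AQP4*, an astrocyte water channel gene, was at 5.63 to 21.5 CPM with *GFAP* and 6.59 to 11.0 CPM without. Whether these nuclei include doublets of OPC with other cells was not tested. *GFAP* split these nuclei after counting, so the ratios are a description without a test.

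Also in the injured OPC without a *GFAP* UMI, *TNC* lay above the 16.1 CPM that 3 UMIs make in the control. Leaving out the OPC with a *GFAP* or *AQP4* UMI took nuclei from the injured libraries only, since control OPC held neither. The fitted log2 differences of *BCAN*, *TNR* and *CSPG5* in OPC then changed from -0.26, -0.57 and -0.65 to 0.64, 0.20 and 0.03, values given as a description.

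**Figure D3:**
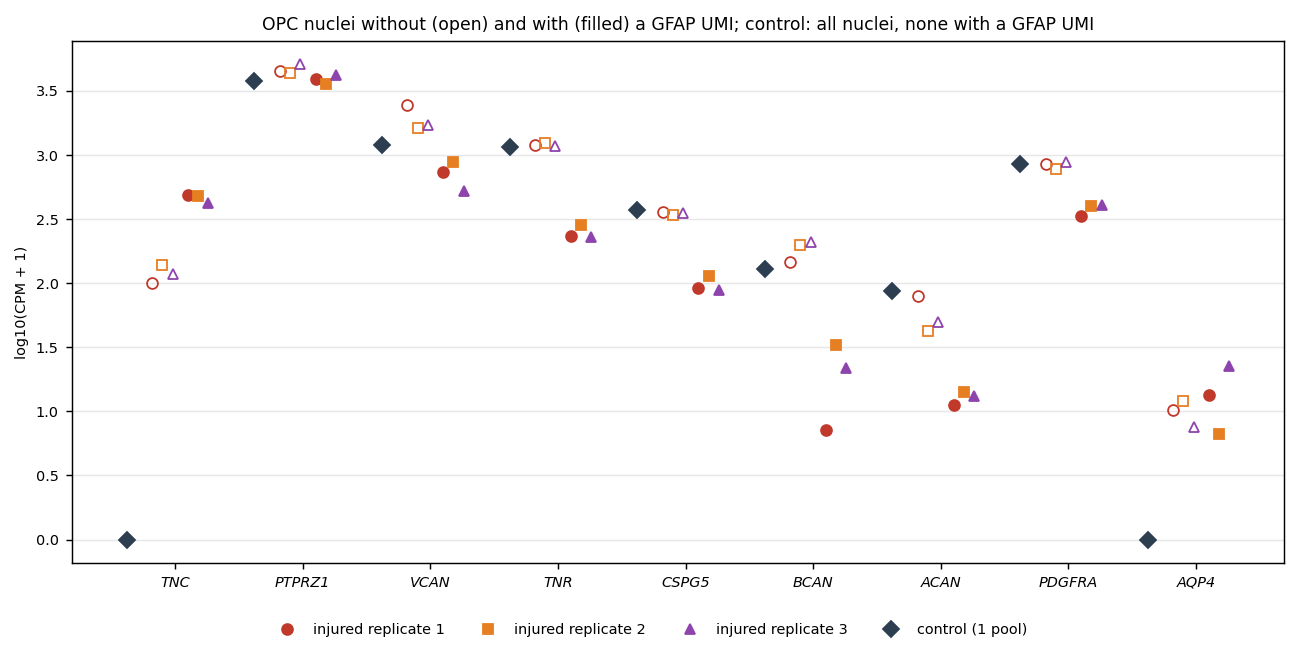
Level, as log10(CPM + 1), of 7 members and of *PDGFRA* and *AQP4* in OPC; open symbols are injured nuclei without a *GFAP* UMI, filled symbols those with one, and the diamond is the control library. *TNC* lies higher in the nuclei with *GFAP* in all 3 injured libraries, and *VCAN*, *TNR*, *CSPG5*, *BCAN* and *ACAN* lie lower.

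Versican (*VCAN*), a lectican of OPC, fibroblasts and blood-borne monocytes, was called in 1 cell type, astrocytes, when all libraries were used. In astrocytes it was at 77.5, 115 and 67.6 CPM in the injured libraries and at 5.78 CPM, from 5 UMIs, in the control. All 3 injured libraries lay above the control. The log2 fold change was 4.01 (SE 0.56, edgeR adjusted p = 0.00658), the 1 call among 8 members tested in astrocytes, where 1.5% of 12445 genes were called. Leaving out injured replicate 1 ended the call (adjusted p = 0.0107). With nuclei of at most 2500 genes the adjusted p was 0.0116 and the log2 fold change 3.39.

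The share of astrocytes with a *VCAN* UMI was 17.7%, 13.7% and 18.3% in the injured libraries and 0.673% (0.184% to 1.72%) in the control. Thinned to 1000 UMIs, it was 5.03%, 7.14% and 4.38% against 0 of 362 nuclei, which allows up to 0.829%. These thinned shares are below the 10% of nuclei that a call required, so the thinned comparison made no call (adjusted p = 0.00328). Oligodendrocytes gave 1.96% to 5.28% at full depth and 0.607% to 2.51% after thinning. The injured astrocyte shares lay above the oligodendrocyte share of the same library at both depths. Other types lay higher. After thinning, the shares were 5.75%, 2.71% and 5.40% in injured nuclei labelled Endo, above astrocytes in injured replicates 1 and 3. In injured microglia they were 13.3%, 9.05% and 16.2%, above astrocytes in every injured library. Within the control, 4 of the 5 astrocyte *VCAN* UMIs and 2 of the 4 *TNC* UMIs lay in 1 cluster of 66 nuclei in which *GFAP* was at 1191 CPM, against 41.3 CPM in the cluster that held 84.2% of control astrocytes.

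OPC, the cell type with the highest *VCAN* level in both cohorts, were at 1429, 1374 and 958 CPM in the injured libraries and at 1198 CPM in the control. The control lay inside the injured range, and the log2 difference was 0.20 (SE 0.26, adjusted p = 0.705). The difference between OPC and astrocytes in the size of the injury effect, -3.77 on the log2 scale (SE 1.07), did not pass (adjusted p = 0.162, with 0.0609% of genes past the limit). Neither did the *VCAN* contrasts of ExN, InN, microglia and oligodendrocytes with astrocytes. The OPC levels above mix nuclei with and without a *GFAP* UMI. *VCAN* was at 2467, 1634 and 1704 CPM in injured OPC without one, above the control in every library. In injured OPC with one it was at 738, 884 and 524 CPM, below the control in every library. Control OPC held no *GFAP* UMI, and these levels are a description without a test.

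Nuclei labelled microglia held much *VCAN* after injury. Their levels were 261, 119.75 and 298 CPM in the injured libraries, and 8.03 CPM in the control, where 129 nuclei gave 1 UMI. The ratio of pooled injured nuclei to control was 29.2, with a counting interval of 5.25 to 1155. Injured replicate 2 was lowest here too. The 129 control nuclei also held *FLT1* at 570 CPM, against 299 CPM in control Endo and 105.6 to 127 CPM in injured microglia, and *LAMA2*, a laminin gene of fibroblasts, at 265 CPM against 14.3 to 16.9 CPM. The part of such RNA in the *VCAN* ratio was not tested. *VCAN* in microglia was not called (edgeR adjusted p = 0.115) unless injured replicate 2 was left out (0.00206), when 2.96% of all microglial genes were called. No microglial gene was called by edgeR among 13470 tested (0%), while 2857 (21.2%) had an unadjusted p below 0.05, *VCAN* among them as 1 of 8 members. DESeq2 called 303 microglial genes and none of the members. Only *VCAN* (23.6%) and *PTPRZ1* (10.7% of injured microglia) reached the 10% of nuclei that a call needs. The share of microglia with a *VCAN* UMI was 26.6%, 16.7% and 28.04% in the injured libraries and 0.775% (0.0196% to 4.24%) in the control. Thinned to 1000 UMIs it was 13.3%, 9.05% and 16.2% against 2.70% (1 of 37 nuclei, 0.0684% to 14.2%), an interval that covered the shares of injured replicates 1 and 2 but not that of injured replicate 3.

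Counted over the whole library, microglia supplied 52.0%, 23.2% and 45.5% of injured *VCAN* UMIs, being 37.6%, 21.5% and 23.3% of nuclei, and OPC supplied 38.3%, 56.9% and 37.7%. In the control OPC supplied 224 of 323 *VCAN* UMIs and microglia 1, being 1.498% of nuclei. Per *PTPRZ1* UMI, a gene of OPC and astrocytes, microglia held 9.16, 3.28 and 5.68 *VCAN* UMIs and OPC of the same libraries 0.343, 0.337 and 0.212.

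The microglial *VCAN* was uneven between the deposited clusters. Cluster 6, with 47.8% of injured microglia, was at 394, 177 and 467 CPM. Cluster 16 was at 98.6, 77.2 and 176 CPM and cluster 21 at 83.3, 16.1 and 79.3 CPM. *MRC1*, a mannose receptor of macrophages, was at 497, 154 and 379 CPM in cluster 6, at 126, 37.3 and 122 CPM in cluster 21, and at 48.0, 32.2 and 64.5 CPM in cluster 16. It was thus highest in cluster 6, as *VCAN* was, while the other two clusters stood in the opposite order. *P2RY12*, a purine receptor of resident microglia, was at 83.7 to 164 CPM in cluster 6, at 247 to 275 CPM in cluster 21 and at 18.7 to 31.0 CPM in cluster 16. The summed level of 5 macrophage markers in all microglia was 2779, 1462 and 2723 CPM in the injured libraries and 1028 CPM in the control, and none of the 5 was at 0. *F13A1* (1633, 872 and 1563 CPM against 409.8 CPM), *CD163* and *LYZ* were higher in every injured library. *MRC1* at 297 CPM in the control lay inside its injured range, and *LYVE1* was lower after injury (2.09 to 25.1 CPM against 241 CPM). The part of macrophages in the microglial *VCAN* level was not tested.

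In nuclei labelled Endo, *VCAN* was at 96.2, 47.5 and 80.9 CPM in the injured libraries and 171 CPM in the control. The control exceeded every injured library, with a log2 difference of -1.08 (SE 0.43) that was not called (adjusted p = 0.117). The effect in Endo was lower than in astrocytes by 5.14 on the log2 scale (SE 1.18, adjusted p = 0.00944), a contrast in which 3.28% of genes passed. However, the Endo label held different nuclei in the cohorts. Of 181 control Endo nuclei, 155 lay in a cluster with *LAMA2* at 4675 CPM and *FLT1* at 10.9 CPM. The injured counterpart with the highest *LAMA2* (cluster 20, 2098 CPM) held 15.9% of injured Endo nuclei, and 37.1% lay in cluster 14, with *FLT1* at 2207 CPM. Between the *LAMA2* clusters *VCAN* was at 283, 176 and 216 CPM against 191 CPM, and the log2 difference was 0.28 (SE 0.34, adjusted p = 0.672).

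**Figure D4:**
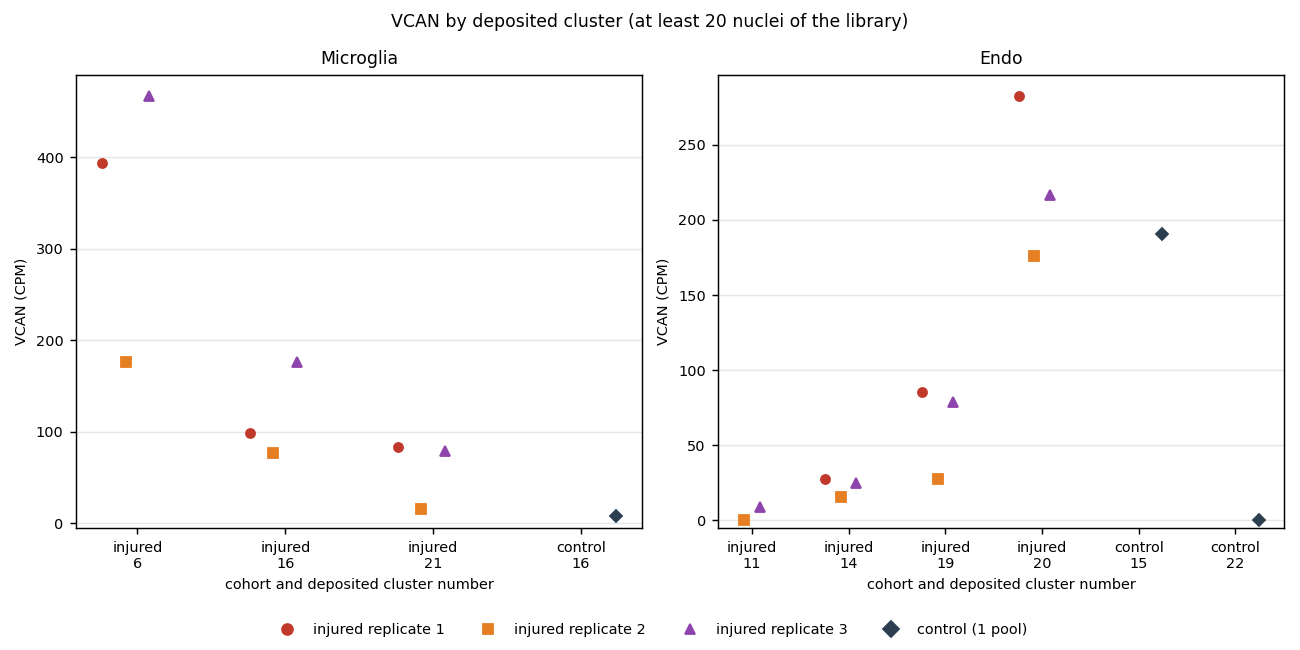
*VCAN* level (CPM, linear axis) in the deposited clusters of nuclei labelled microglia (left) and Endo (right), 1 point per library with at least 20 nuclei in the cluster. Injured cluster 6 leads among microglia at 177 to 467 CPM, and injured cluster 20 and control cluster 15, both high in *LAMA2*, overlap at 176 to 283 and 191 CPM.

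*VCAN* in the remaining types was low. In ExN it was at 9.05, 5.51 and 9.68 CPM in the injured libraries and at 2.69 CPM in the control, a log2 difference of 1.68 (SE 0.40) with an adjusted p of 0.0272. Because 0.685% of control ExN and 2.65% to 5.64% of injured ExN held a *VCAN* UMI, this pair was under the 10% limit at any p. In InN it was at 15.6, 6.96 and 7.67 CPM against 3.24 CPM (log2 difference 1.65, SE 0.60, adjusted p = 0.0828). Oligodendrocytes were at 15.4, 10.1 and 29.1 CPM against 1.57 CPM from 2 UMIs, a ratio of 11.0 (counting interval 2.97 to 92.1). No member was called in oligodendrocytes by edgeR or DESeq2 (0.774% of 11631 genes were called by edgeR). Only *PTPRZ1* (10.2% of injured oligodendrocytes) reached the 10% limit, so the other members, *VCAN* among them, could not be called at any p. Of 6 members tested there, 1, *VCAN*, had an unadjusted p below 0.05, as had 30.8% of all genes.

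Brevican (*BCAN*), a brain lectican of glia and neurons, gave the third call. In ExN it was at 28.5, 24.7 and 26.2 CPM in the injured libraries and 14.6 CPM in the control. The injured libraries lay close together and above the control, with a log2 fold change of 0.97 (SE 0.16, edgeR adjusted p = 0.00936). It was the 1 call of 9 members tested in ExN, where 3.85% of 15122 genes were called. *BCAN* met the limit of 10% of nuclei through injured ExN only (14.2%, against 4.50% of control ExN). The median ExN held 5378 to 7077 UMIs in the injured libraries and 2678 in the control. Thinned shares, given below, were under that limit in both cohorts, so no call was possible at equal depth. *VCAN* in astrocytes and *TNC* in OPC also met the limit through injured nuclei only. Of the 3 calls this was the smallest in size, and it was lost after thinning (adjusted p = 0.0321), with nuclei of at most 2500 genes (0.113), without injured replicate 1 (0.0433) and with library-size scaling (0.0177). A *BCAN* UMI was present in 16.9%, 12.5% and 15.0% of injured ExN and 4.498% of control ExN, and after thinning in 3.13%, 2.27% and 2.74% against 1.55%.

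In InN *BCAN* was at 23.6, 27.7 and 29.7 CPM against 18.8 CPM (log2 difference 0.64, SE 0.26, edgeR adjusted p = 0.111). All 3 injured libraries lay above the control there, and the InN minus ExN contrast of -0.33 (SE 0.46) did not pass. In astrocytes *BCAN* was at 43.0, 76.2 and 43.6 CPM against 32.4 CPM, a log2 difference of 0.86 (SE 0.44, adjusted p = 0.228). OPC, where its level was highest in both cohorts, ranged from 61.6 to 141 CPM around a control of 128 CPM. Neurocan (*NCAN*), a lectican bound by tenascins and neural cell adhesion molecules, was at most at 17.0 CPM in an injured library (ExN). Its highest measured control level was 16.2 CPM in astrocytes, under the 24.1 CPM that 3 UMIs make in control microglia, which held none. None of its tested differences was called, and none could be, since at most 7.13% of a cohort's nuclei (injured ExN) held an *NCAN* UMI.

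Aggrecan (*ACAN*) was lower in the injured libraries in ExN, InN and OPC, without a call. In OPC it was at 37.6, 31.3 and 25.7 CPM against 85.6 CPM, which rested on 16 control UMIs (log2 difference -1.31, SE 0.40, adjusted p = 0.14). The ExN levels were 2.99, 3.13 and 3.12 CPM against 6.50 CPM (log2 difference -0.95, SE 0.24, adjusted p = 0.0312). In InN it was at 18.8, 32.6 and 40.4 CPM against 43.8 CPM, a difference of -0.38 (SE 0.33) within the spread of the injured libraries (adjusted p = 0.448).

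Within InN the gene was highest in the cluster of each cohort with the most parvalbumin (*PVALB*). Injured cluster 5, with *PVALB* at 33.4 to 65.3 CPM, had *ACAN* at 25.1, 39.5 and 52.3 CPM, and the other injured InN clusters were at 1.88 to 12.6 CPM. The control cluster with the highest *PVALB* (100.1 CPM) had *ACAN* at 77.1 CPM. A control cluster with *PVALB* at 48.0 CPM, inside the range of injured cluster 5, had *ACAN* at 20.4 CPM, and the other control clusters were at 4.37 and 6.36 CPM. Clusters were drawn by the authors in each cohort separately, so they are not matched.

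The link protein gene *HAPLN1*, whose product clamps lecticans to hyaluronan, had its highest measured level in InN in both cohorts. It was at 16.8, 18.3 and 15.3 CPM in the injured libraries and 16.2 CPM in the control. The control lay within the injured range. The control order is less certain, since control microglia held 1 *HAPLN1* UMI and 3 UMIs make 24.1 CPM there. In ExN it was at 2.91 to 4.64 CPM against 6.26 CPM, and the log2 difference of -0.67 (SE 0.33) was not called (adjusted p = 0.178). At most 2.09% of a cohort's ExN held a *HAPLN1* UMI, under the limit of 10% of nuclei.

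Tenascin R (*TNR*), the tenascin of the adult nervous system and a component of perineuronal nets, moved differently from *TNC*. In OPC, its highest cell type, it was at 618, 911 and 580.4 CPM in the injured libraries and 1145 CPM in the control. Every injured library was below the control, yet the difference was not called (log2 -0.57, SE 0.28, adjusted p = 0.3). Without injured replicate 2 it was -0.82 and called (adjusted p = 6.78e-05), as was *CSPG5* (-0.83, adjusted p = 0.00556). In that fit 7.25% of all OPC genes were called.

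In InN *TNR* was at 161, 198 and 169.6 CPM against 113 CPM, and in ExN at 137, 133 and 106 CPM against 92.9 CPM. All injured libraries lay above the control in both. Their log2 differences of 0.74 (SE 0.18, adjusted p = 0.0206) and 0.55 (SE 0.17, adjusted p = 0.0573) missed the limit. A *TNR* UMI was found in 42.4% to 49.4% of injured InN and 24.4% of control InN. After thinning the shares were 12.6% to 16.3% against 11.1%.

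*CSPG5* (neuroglycan C) is a membrane-spanning proteoglycan, and *PTPRZ1* a receptor tyrosine phosphatase that carries chondroitin sulfate chains and binds tenascins. *PTPRZ1* was highest in OPC, at 4162, 4075 and 4512 CPM in the injured libraries and 3761 CPM in the control, a log2 difference of 0.31 (SE 0.18, adjusted p = 0.36). Astrocytes followed at 1455, 1346 and 1958 CPM against 989 CPM, a difference of 0.80 (SE 0.27, adjusted p = 0.0925). All injured libraries lay above the control in both types.

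*CSPG5* in astrocytes was at 135, 215 and 178 CPM around a control of 176 CPM, and in OPC at 198, 259 and 186 CPM below a control of 369 CPM. Neither was called. ExN were at 30.1 to 37.7 CPM against 26.4 CPM (log2 difference 0.53, adjusted p = 0.0913). In InN both genes were higher in every injured library. *CSPG5* was at 36.4, 36.1 and 35.9 CPM against 21.4 CPM (log2 difference 0.86, SE 0.22, adjusted p = 0.0255). *PTPRZ1* was at 118, 112 and 124 CPM against 77.2 CPM (0.72, SE 0.16, adjusted p = 0.016).

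No member was called in InN by edgeR, where 3.41% of 12984 genes were called, or by DESeq2, although 5 of 9 had an unadjusted p below 0.05, as had 34.8% of all genes. *VCAN*, *NCAN*, *HAPLN1* and *TNC* were under the limit of 10% of nuclei in InN of both cohorts and could not be called there. With an adjusted p limit of 0.05 in place of 0.01, edgeR called 3 of 9 in InN (*CSPG5*, *PTPRZ1* and *TNR*) and 11% of all genes. At that limit 2 of 8 were called in astrocytes (*TNC* and *VCAN*), with 7.16% of all genes, and 1 of 8 in Endo (*PTPRZ1*), with 13.6%. The median log2 difference over the members tested was 0.64 in InN and 0.34 in ExN, against a median of 0.00 over all genes tested in each. In OPC it was -0.03 over 8 members as fitted, against 0.17 over all genes. With *TNC* at its bound, the OPC median was -0.26 over the 7 members with a value, which is not like for like with the fitted median of all genes. In astrocytes it was 0.46 over 8 members, against 0.05 over all genes. Scaling by library size alone lowered the median of all genes by 0.10 to 0.24 according to cell type.

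**Figure D5:**
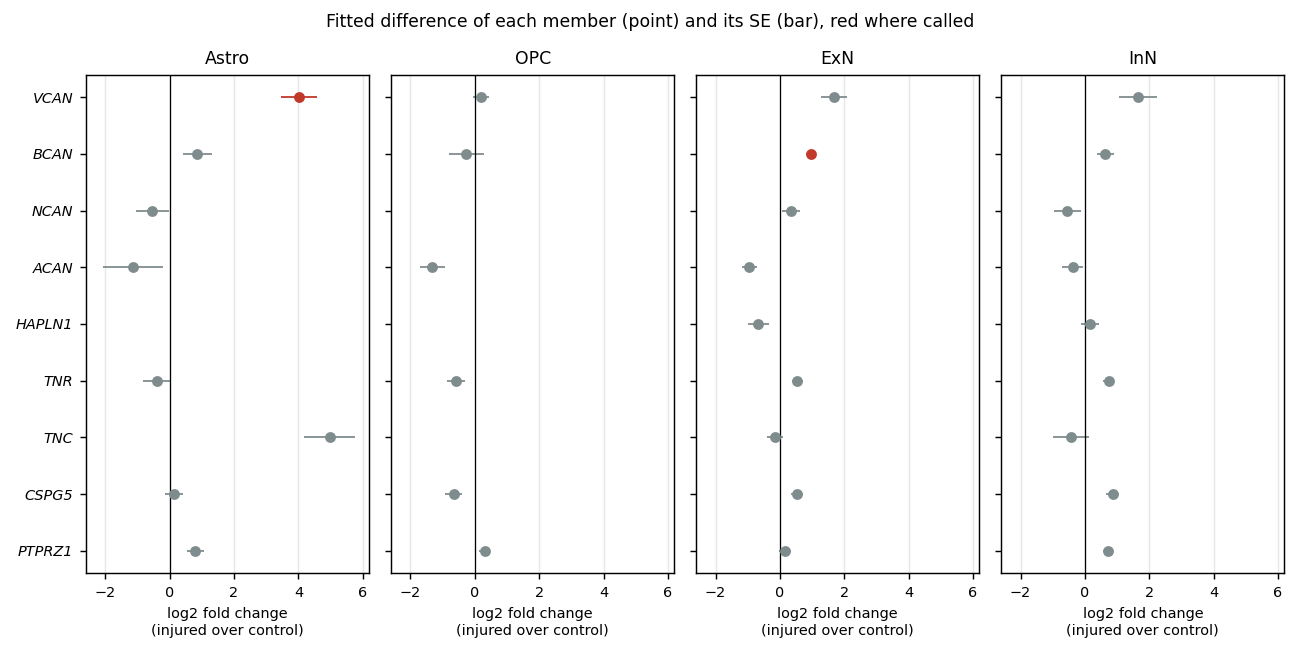
Fitted log2 fold change of injured over control (point) with its SE (bar) for members with at least 4 control UMIs in astrocytes, OPC, ExN and InN; red marks calls. *VCAN* at 4.01 in astrocytes and *BCAN* at 0.97 in ExN are red, *TNC* at 4.98 in astrocytes is not, and *TNC* in OPC is not drawn because its control count was 0.

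Several glial genes had no or almost no UMIs in control Endo nuclei. *BCAN* was at 14.4 to 16.9 CPM and *CSPG5* at 26.5 to 36.2 CPM in injured Endo nuclei and at 0 UMIs in the control. Against 3 control UMIs (14.7 CPM) the pooled injured levels were at least 1.07-fold and 2.11-fold higher, and the lowest *BCAN* library was under that limit. *TNR* was at 39.1, 37.9 and 28.5 CPM against 1 UMI, a ratio of 7.02 (counting interval 1.25 to 278). *TNC* was at 45.2, 13.1 and 26.1 CPM against 1 UMI, a ratio of 5.18 (0.922 to 205). *PTPRZ1* was at 141, 93.9 and 141 CPM against 49.0 CPM (log2 difference 1.48, SE 0.45, adjusted p = 0.0486). No member was called in Endo by edgeR, where 6.18% of 13205 genes were called, or by DESeq2, and 5 of 8 had an unadjusted p below 0.05, as had 33.1% of all genes. Only *PTPRZ1* (19.2% of injured Endo nuclei) reached the limit of 10% of nuclei, so the other members could not be called there at any p. Cluster 19, with 45.1% of injured Endo nuclei and a median of 1150 UMIs, held *PTPRZ1* at 191 to 365 CPM, *BCAN* at 30.8 to 43.6 CPM and *TNR* at 72.7 to 88.6 CPM. The neuronal genes *SYT1* (2563 to 2961 CPM) and *CUX2* (335 CPM over its nuclei) were also high in this cluster, and *FLT1* (21.6 CPM) and *LAMA2* (29.6 CPM) were low.

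Genes around these proteins were described from 5 lists. Of 21 genes that build chondroitin sulfate chains, 13 to 15 were tested in each type, and 2 were called by edgeR, both in Endo, in 97 tests over the 7 types. In those tests 32 had an unadjusted p below 0.05, and DESeq2 called 7. Over all 90333 tests of genes in cell types, edgeR called 2.35%, DESeq2 called 3.72% and 30.4% had an unadjusted p below 0.05, which are the shares to read the counts of all 5 lists against. *CHSY3*, a chain polymerase, was at 377, 350.3 and 265 CPM against 108 CPM (log2 1.75, SE 0.34, adjusted p = 0.00944). *UST*, a uronyl sulfotransferase, fell by 1.14 on the log2 scale (SE 0.21, adjusted p = 0.00697).

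The 13 hyaluronan and link protein genes gave 62 tests, of which edgeR called 5, DESeq2 called 6 and 27 had an unadjusted p below 0.05. *CD44* rose in astrocytes, from 19.7 CPM to 372, 436 and 511 CPM (log2 4.60, SE 0.35, adjusted p = 0.00157). It was the 1 of 9 list genes tested there to be called. In OPC *CD44* was at 206, 200.3 and 306 CPM against 26.8 CPM, with an adjusted p of 0.0418, and DESeq2 called it. In Endo *CEMIP*, whose product takes part in breaking down hyaluronan, fell by 2.27 (SE 0.31, adjusted p = 0.00224), and *HYAL2*, a hyaluronidase gene, was at 109.8 to 149 CPM against 2 control UMIs, a ratio of 12.7 (counting interval 3.52 to 105). *HAPLN4*, the link protein gene of brainstem and cerebellar nets, had 1138 UMIs in control ExN and 313 in control InN and none in any cell type of the 3 injured libraries. It was called lower in both, by at least 1262-fold and 406-fold against 3 UMIs over the injured libraries. Whether reads of *HAPLN4* could be counted in the injured cohort was not tested.

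*ITGB1*, the beta 1 integrin subunit, was the 1 gene of 10 receptors and partners that edgeR called, in 2 of 60 tests, of which 25 had an unadjusted p below 0.05. DESeq2 made 4 calls, *ITGB1* in OPC and *PTPRF*, a receptor phosphatase gene, in ExN being the other two. It rose in astrocytes (218, 156 and 167 CPM against 34.7 CPM, log2 2.48, SE 0.30, adjusted p = 0.00442) and in Endo (log2 2.59, SE 0.29, adjusted p = 0.00105). Among 16 lectican-cleaving proteases and their inhibitors, edgeR called 3 in 85 tests, of which 36 had an unadjusted p below 0.05, and DESeq2 made 7 calls. The other four were *ADAMTS8* and *MMP16* in ExN, *TIMP2* in microglia and *ADAMTS1* in astrocytes. *ADAMTS4*, an aggrecanase gene, fell in ExN by 0.81 (SE 0.13, adjusted p = 0.00797). *ADAMTS1*, a protease of versican and aggrecan, was at 156, 265 and 134 CPM in injured Endo and at 0 UMIs in the control, at least 12.8-fold higher when the injured libraries are pooled. *TIMP1*, an inhibitor of metalloproteases, was at 92.3 to 132 CPM in Endo against 3 control UMIs, a ratio of 7.40 (counting interval 2.53 to 35.9). None of the 9 other matrix proteoglycan and tenascin genes, 5 to 7 of them tested per type, was called by edgeR, while 18 of 42 tests had an unadjusted p below 0.05 and DESeq2 called *SPOCK1*, a testican gene, in OPC and Endo. For the median of a list, genes without a UMI in 1 cohort were set at their bounds. Such genes were left out where the other cohort did not exceed the level that 3 UMIs make. Over the 7 cell types this median log2 difference ranged from -0.21 to 0.48 for chain synthesis and from -0.16 to 0.53 for receptors. It ranged from -0.22 to 0.95 for proteases and from -0.99 to 0.13 for other matrix genes. For hyaluronan and link genes it ranged from -3.29 in microglia, where 3 of 9 genes had a value, to 1.10 in OPC. The medians over all genes lay between 0.00 and 0.42, but these were fitted without bounds and so are not like for like. As fitted, the hyaluronan and link median in microglia was 6.69. The differing makeup of Endo nuclei given above stands beside each Endo value.

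The gene whose level ran most like that of each member was sought among 12073 genes over the 28 sums of cell type and library, which share libraries and depth, so the coefficients are descriptions. *BCAN* and *CSPG5* were nearest to each other (Pearson r = 0.955). *TNC* was nearest to *PDLIM4* (0.901) and then *GFAP* (0.885), *TNR* to *MMP16* (0.928), *PTPRZ1* to *RCN2* (0.947) and *VCAN* to *BAMBI* (0.873). *ACAN* was nearest to *ACADL* (0.919), *NCAN* to *TRIM9* (0.923) and *HAPLN1* to *SHISA9* (0.876). Between *TNC* and *TNR*, the pair of tenascins, r was 0.14.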

How the data were processed

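Single nuclei of marmoset V1 were sequenced on the 10X platform (3' chemistry). The authors counted UMIs with Cell Ranger 3.1.0 on calJac3 with an Ensembl annotation, removed doublets with Scrublet from the injured cohort and by limits on gene number from the control and named clusters of each cohort by markers. The deposited tables give each nucleus its cell type and its UMI counts by gene, as raw whole numbers. No nucleus was removed here from the main comparison. Thinning left out nuclei with fewer UMIs than the number thinned to.

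Sums over the nuclei of a cell type in a library were compared by the quasi-likelihood test of edgeR 4.0.16 (R 4.3.3) with TMM factors, after filterByExpr, and with Benjamini-Hochberg adjustment over all genes tested in the cell type. A gene was called if its adjusted p was under 0.01, its natural-log fold change exceeded 0.25 in size and 10% or more of the nuclei of one cohort held a UMI. The spread came from the injured libraries and was assumed for the control. An exact permutation of 3 against 1 libraries cannot go below p = 0.25. Whether the injury effect differed between cell types was tested by an interaction term, blocking on library. Cell types were not tested against each other. Shares have exact (Clopper-Pearson) 95% intervals, which cover counting error only, at full depth and thinned to 500, 1000 and 1500 UMIs, and the share that a count of 0 allows is 3 counts of the total. Genes without a control UMI are given as bounds against 3 UMIs, those with 1 to 3 as pooled ratios with a counting interval. Steps were tested on simulated counts.

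Injured replicates 1, 2 and 3 are the animals labelled F1619, F1565 and F1711. The members and the 5 gene lists were chosen with earlier results of these data known. Every member was named, and of each list the called genes, up to 4 per cell type. *CD44* in OPC, *SPOCK1*, *PTPRF*, *ADAMTS8*, *MMP16*, *TIMP2*, the clusters and the marker genes were named after their values were seen. Alternatives were DESeq2 1.42.0, other scalings, no filter, thinning, nuclei of at most 2500 genes, OPC without *GFAP* or *AQP4* and astrocytes without *PDGFRA* UMIs, an adjusted p limit of 0.05, leaving out each injured library, and, chosen after seeing the data, the Endo cluster with the highest *LAMA2* of each cohort. The other steps ran in Python 3.11.15 (pandas 2.3.3, scipy 1.17.1, numpy 2.4.6).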

Additional observations from a re-analysis of the deposited data

Results flagged for a closer look

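In 3 of 63 cases tested the injured to control difference of a member differed between cell types (edgeR interaction, adjusted p below 0.01). Of all genes, 0.663% passed for ExN minus astrocytes, 0.514% for InN minus astrocytes and 3.28% for Endo minus astrocytes. For *TNC* the difference in ExN minus that in astrocytes was -5.04 on the log2 scale, and in InN minus astrocytes -5.31. For *VCAN* the difference in Endo minus that in astrocytes was -5.14. The Endo label held different nuclei in the cohorts, and between the clusters with the highest *LAMA2* the Endo difference was 0.28 in place of -1.08.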

How the results depend on the processing

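The number of members called in astrocytes was 1 and became 2 (*TNC* and *VCAN*) with library-size scaling, RLE scaling, DESeq2, no filter, without mixed-marker nuclei and at an adjusted p limit of 0.05. It became 0 with at most 2500 genes, where *VCAN* missed the adjusted p limit as given above. It also became 0 after thinning, where the *VCAN* and *TNC* shares fall under the 10% of nuclei that a call needs. The number ranged from 0 to 2 when 1 injured library was left out. In OPC 1 call became 0 with library-size scaling and thinning and ranged from 0 to 3 with a library left out. In ExN 1 call became 0 with library-size scaling, thinning and at most 2500 genes, and ranged from 0 to 2. The 0 calls in InN became 1 with at most 2500 genes and 3 at the 0.05 limit, and ranged from 0 to 3, those in Endo became 1 at the 0.05 limit and ranged from 0 to 1, and those in microglia ranged from 0 to 1. The share of all genes called moved as well. In astrocytes it was 1.5%, and 1.6% to 2.73% under the first 5 of the settings that gave 2 members, 7.16% at the 0.05 limit, 0.745% with at most 2500 genes, 1.18% after thinning and 0.655% to 5.96% with a library left out. In OPC it was 0.0697%, 0% with library-size scaling, 0.106% after thinning and 0% to 7.25% with a library left out. In ExN it was 3.85%, between 0.805% and 3.48% under the settings without a member and 0.51% to 6.11% with a library left out. In InN it was 3.41%, 3.9% with at most 2500 genes, 11% at the 0.05 limit and 1.87% to 12.2% with a library left out, in Endo 6.18%, 13.6% at the 0.05 limit and 3.88% to 12.7% with a library left out, and in microglia 0% and 0% to 2.96% with a library left out. The 3 differences between cell types ranged from 1 to 3. Of 63 pairs of member and cell type, 59 (93.7%) had a higher injured mean share at full depth and 38 (60.3%) at 1000 and at 1500 UMIs, against 88.6%, 52.1% and 54.1% over all genes. The other causes were not tested.

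Signs turned for differences that were not called with all libraries. With thinning these were *CSPG5* (-0.092) and *TNR* (0.16) in astrocytes, *HAPLN1* in InN (-0.10), and *PTPRZ1* (0.15) and *TNR* (0.78) in microglia. With at most 2500 genes they were *CSPG5* (0.063), *BCAN* (0.61) and *TNR* (0.19) in OPC, *TNC* (0.20) and *HAPLN1* (-0.47) in InN, and *PTPRZ1* (0.12) and *TNR* (0.17) in microglia. Without mixed-marker nuclei *CSPG5* (0.027), *BCAN* (0.64) and *TNR* (0.20) turned in OPC, and between *LAMA2* clusters *VCAN* (0.28) turned in Endo. With 1 library left out, *CSPG5* in astrocytes ranged from -0.049 to 0.29, *TNR* in oligodendrocytes from -0.12 to 0.78, and in microglia *PTPRZ1* from -0.30 to 0.15 and *TNR* from -0.53 to 0.073.

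No paired analysis was possible because the control is 1 pooled library and the groups share fewer than 2 replicate numbers. In the control 171 OPC held 186916 UMIs and 129 microglia 124463, so that 3 UMIs amount to 16.1 and 24.1 CPM there.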
